A study of Mus musculus with 14 samples.

Results

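The nuclear-encoded subunits of the mitochondrial respiratory chain were described in small intestinal organoids of 4 genotypes. Members were the protein-coding genes whose symbols name a subunit of NADH dehydrogenase (Nduf followed by a, b, c, s or v and a digit), succinate dehydrogenase (Sdha to Sdhd), the cytochrome bc1 complex (Uqcr genes and Cyc1), cytochrome c oxidase (Cox4i, Cox5, Cox6, Cox7 and Cox8 genes) or ATP synthase (Atp5 genes). The rule took no account of genotype and required a mean over the 14 libraries of at least the log2 of 10 on the deposited scale. It gave 80 members out of 12802 genes with such a mean, in a table of 18781 genes. Complex I held 37 of them, complex II 4, complex III 9, complex IV 14 and complex V 16. A single gene that matched by name, Atp5l, fell just outside the required mean with 3.28, whereas Atp5g2 was the lowest member with 4.51. The 13 protein-coding genes of mitochondrial DNA, which encode the remaining subunits, were not analysed here, nor were Cox4i2, Cox7b2, Cox8b and Cox8c.

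The respiratory chain sits in the inner mitochondrial membrane. Complexes I and II pass electrons from NADH and succinate to ubiquinone, complex III hands them on to cytochrome c, and complex IV delivers them to oxygen. The proton gradient built up along this path drives complex V, which makes ATP. Most subunits are encoded in the nucleus and imported, and in the intestine differentiated absorptive cells are known for a high demand for oxidative metabolism.

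Total RNA was sequenced from 4 organoid samples each of WT, of Atg16l1/Rnaseh2b ΔIEC and of Atg16l1 ΔIEC, and from 2 of Rnaseh2b ΔIEC, all grown untreated in intesticult medium. Per the labels, WT carried both floxed alleles (ATG16L1flox/flox and RNaseH2Bflox/flox) without Cre, the single knockouts carried ATG16L1flox/flox or RNaseH2Bflox/flox, and the remaining group carried both floxed alleles, each with VillinCre+/-. Villin-Cre is active in intestinal epithelial cells, so deletion was confined to the epithelium by design, and animals, ages and lines behind the cultures were not given. A further 2 Rnaseh2b ΔIEC samples were left out by the authors for their read counts.

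The deleted genes followed the labels. Rnaseh2b read 7.15 to 7.21 in Rnaseh2b ΔIEC and 7.68 to 7.92 in Atg16l1/Rnaseh2b ΔIEC, against 8.41 to 8.72 in WT and Atg16l1 ΔIEC organoids. Atg16l1 read 6.73 to 7.35 in Atg16l1 ΔIEC and 8.14 to 8.57 in Atg16l1/Rnaseh2b ΔIEC, against 9.43 to 9.54 in the groups that keep it. The read depth is unknown, and low values lie close together on this scale. The names of the libraries place WT in sequencing lane 1 and both single knockouts in lane 2. Atg16l1/Rnaseh2b ΔIEC was split, with its libraries 1 and 2 in lane 2 and its libraries 3 and 4 in lane 1. Libraries 1 and 2 of a genotype, and likewise 3 and 4, moved together, with correlations of 0.31 to 0.85 between their deviations from the genotype mean. Whether such pairs share an animal or a culture is not stated, and the Rnaseh2b ΔIEC libraries form 1 such pair, so p-values here measure the spread between libraries.

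Upstream sequence was matched for 65 of the 80 members in RefSeq (GRCm38.p6), as the 250 bases before each start site. Known regulators of respiratory genes were searched by their letters on both strands. The letters of NRF1 (GCGCA, any base, then GCGC) stood in 12 of the 65 (18.5%), compared with 5.3% of 17491 promoters of the same length. CCGGAAG, read by GABPA, stood in 10 (15.4%, compared with 9.12%), CAAGGTCA, read by ESRRA, in 2 (3.08%, compared with 1.15%) and AAGATGGC, read by YY1, in 0 (compared with 1.51%). The NRF1 letters read almost the same on both strands, so both strands can match the same bases, and promoters were counted, not matches. Of the 18 members with a promoter that rose in Rnaseh2b ΔIEC against WT organoids, 6 held the NRF1 letters, and so did 6 of the other 47. These matches describe the sequence and are not evidence of binding.

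The promoters of 4 members that differ between genotypes and hold a match are given 5′ to 3′ on the strand of the gene, with the matches in capitals. Sdha has 3 NRF1 matches that begin 98, 55 and 10 bases before the start, Sdhd has an NRF1 match at 79 and a reversed GABPA match at 46 bases, and Ndufb7 and Ndufs3 have a GABPA match at 20 and 27 bases. The regions are chr13:74350241-74350490 for Sdha, chr9:50603850-50604099 for Sdhd, chr8:83566508-83566757 for Ndufb7 and chr2:90904722-90904971 for Ndufs3, of which Ndufb7 is on the plus strand and the others are on the minus strand. The starts are those of RefSeq, and the regions of Sdha, Ndufb7 and Ndufs3 reach into the gene by the coordinates given below. Their matches at 10, 20 and 27 bases, respectively, lie in that overlap.
Sdha: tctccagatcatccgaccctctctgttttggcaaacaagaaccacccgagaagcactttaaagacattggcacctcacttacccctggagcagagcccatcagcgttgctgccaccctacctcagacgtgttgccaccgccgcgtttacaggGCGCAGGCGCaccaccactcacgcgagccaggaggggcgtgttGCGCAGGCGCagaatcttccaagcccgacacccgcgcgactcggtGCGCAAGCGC
Sdhd: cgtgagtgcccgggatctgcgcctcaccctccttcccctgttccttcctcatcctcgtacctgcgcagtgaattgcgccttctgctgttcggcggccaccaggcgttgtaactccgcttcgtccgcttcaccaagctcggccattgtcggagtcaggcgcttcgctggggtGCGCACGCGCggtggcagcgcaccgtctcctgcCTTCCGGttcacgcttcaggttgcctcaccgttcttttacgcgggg
Ndufb7: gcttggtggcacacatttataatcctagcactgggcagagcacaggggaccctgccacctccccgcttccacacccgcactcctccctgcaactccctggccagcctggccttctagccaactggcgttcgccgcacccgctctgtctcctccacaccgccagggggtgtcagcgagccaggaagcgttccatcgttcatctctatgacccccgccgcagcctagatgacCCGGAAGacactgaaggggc
Ndufs3: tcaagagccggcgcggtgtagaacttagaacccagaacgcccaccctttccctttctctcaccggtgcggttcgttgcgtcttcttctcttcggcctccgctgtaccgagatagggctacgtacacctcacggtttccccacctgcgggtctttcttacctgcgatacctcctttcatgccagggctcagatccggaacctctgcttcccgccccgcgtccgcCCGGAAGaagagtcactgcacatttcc

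Levels differed far more between subunits than between genotypes. Per kilobase of annotated exon, the median level on the log2 scale was 10.83 for complex I, 11.61 for complex II, 12.34 for complex III, 11.16 for complex IV and 11.19 for complex V. The highest member was Atp5a1, the alpha subunit of ATP synthase, with 14.27, and the lowest was Atp5g2 with 3.76. Both extremes depend on the length used. Per kilobase of the longest coding transcript, Atp5b was the highest member (15.28, against 14.50 for Atp5a1). Atp5g1 was then the lowest (4.76, against 4.92 for Atp5g2). Some members share sequence with pseudogenes or paralogs, which can split their reads. Of the 50-base windows along its main transcript, Atp5l shared 84.8% with 14 other genes, 12 of them pseudogenes, and this is the gene just below the required mean. Over 25% was shared in 13 members: Atp5o (50.3%), Atp5h (47.9%), Uqcrb (43.4%), Ndufs3 (39.7%), Atp5f1 (38.7%), Ndufb4 (37%), Ndufb6 (34.1%), Cox5a (32%), Ndufs5 (31.1%), Ndufa13 (28.5%), Cox7c (27.9%), Ndufa12 (26.2%) and Cox5b (25.9%). By contrast 36 members shared none. Differences of these genes between genotypes carry that uncertainty, and so do those of members that overlap a measured gene on the opposite strand. Among the members called in any comparison these are, with the gene they overlap, Ndufa2 (Tmco6), Ndufa4l2 (Shmt2), Ndufa11 (Vmac), Ndufs1 (Eef1b2 and Ino80dos), Ndufs3 (Kbtbd4), Ndufs6 (Mrpl36), Uqcrc2 (Pdzd9), Cox4i1 (Emc8), Cox5a (Gm26631), Cox6a2 (Itgad), Cox6c (Vps13b), Atp5d (Cbarp) and Atp5o (D430001F17Rik).

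**Figure D1:**
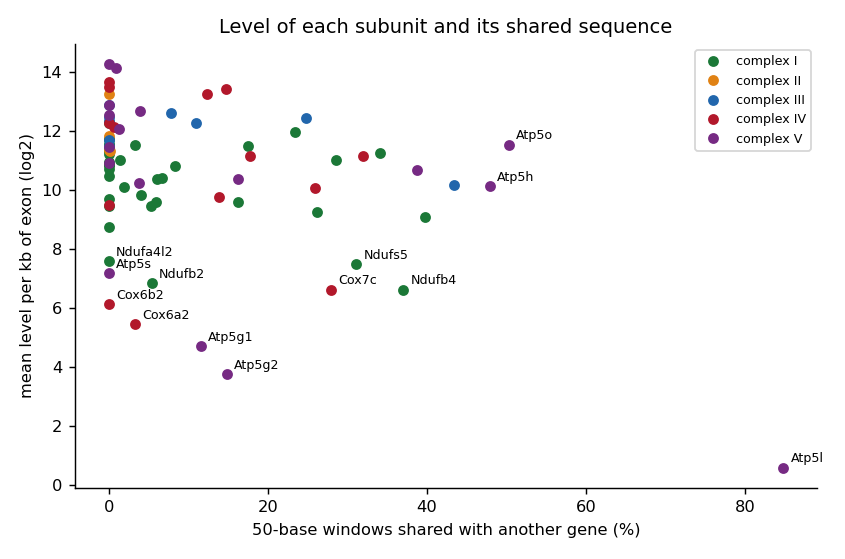
Each point is a subunit, coloured by complex. The horizontal axis gives the percent of its 50-base windows that also occur in another gene and the vertical axis its mean level per kilobase of exon on the log2 scale; Atp5l, at 84.8% and below the required mean, is at the lower right, and Atp5g2 with 3.76 is the lowest member.

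Rnaseh2b ΔIEC organoids held slightly more mRNA of subunits of all 5 complexes than WT organoids. Of the 80 members, 71 lay above 0, the median log2 difference was 0.12 (1.09-fold), and the median over all genes was 0.00. By limma with adjustment over all genes at 0.05, 23 members rose and 2 fell, 31.2% of members against 26.7% of all genes called in either direction. Among all genes 14.4% rose and 12.3% fell. In 60 members both Rnaseh2b ΔIEC libraries exceeded all 4 WT libraries (28.4% of all genes did so), and in 5 they lay below (27.0% of all genes). By complex, 6 of 37 rose in complex I, 2 of 4 in complex II, 5 of 9 in complex III, 7 of 14 in complex IV and 3 of 16 in complex V. Members are not independent samples, and in bulk RNA fewer cells of a type cannot be told apart from less RNA per cell.

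The mean over the members of each complex was taken per library. For complex I it was 10.98, 10.95, 10.89 and 10.91 in WT, 10.95, 10.98, 10.99 and 10.97 in Atg16l1 ΔIEC, 11.04 and 11.01 in Rnaseh2b ΔIEC, and 10.97, 10.97, 10.90 and 10.91 in Atg16l1/Rnaseh2b ΔIEC. The means for complex II were 13.32, 13.27, 13.17 and 13.17 in WT, 13.22, 13.21, 13.32 and 13.27 in Atg16l1 ΔIEC, 13.40 and 13.43 in Rnaseh2b ΔIEC, and 13.21, 13.26, 13.14 and 13.18 in Atg16l1/Rnaseh2b ΔIEC. Both Rnaseh2b ΔIEC libraries stood above all other libraries in these complexes. Complex III averaged 12.55, 12.53, 12.46 and 12.47 in WT, 12.56, 12.55, 12.57 and 12.57 in Atg16l1 ΔIEC, 12.66 and 12.63 in Rnaseh2b ΔIEC, and 12.58, 12.58, 12.46 and 12.47 in Atg16l1/Rnaseh2b ΔIEC. Complex IV averaged 10.74, 10.73, 10.68 and 10.73 in WT, 10.68, 10.72, 10.77 and 10.76 in Atg16l1 ΔIEC, 10.83 and 10.83 in Rnaseh2b ΔIEC, and 10.70, 10.72, 10.69 and 10.68 in Atg16l1/Rnaseh2b ΔIEC, and complex V averaged 11.75, 11.72, 11.67 and 11.68 in WT, 11.74, 11.75, 11.77 and 11.75 in Atg16l1 ΔIEC, 11.81 and 11.79 in Rnaseh2b ΔIEC, and 11.75, 11.75, 11.66 and 11.67 in Atg16l1/Rnaseh2b ΔIEC. In complexes III, IV and V the Rnaseh2b ΔIEC libraries were likewise the highest.

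**Figure D2:**
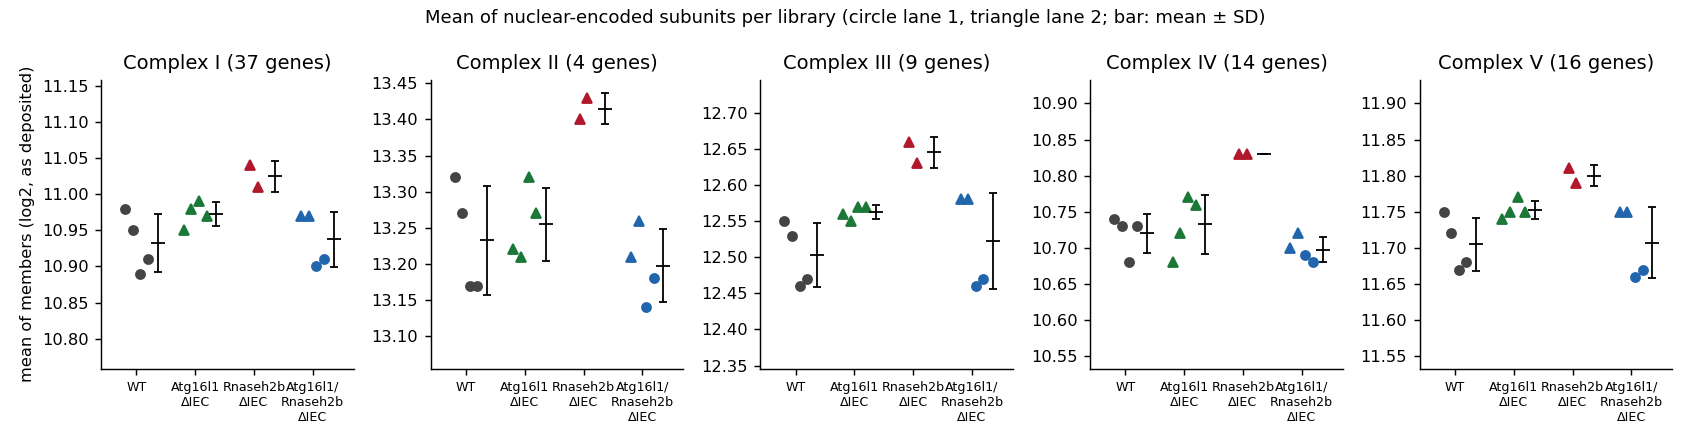
Mean log2 value over the members of each complex (vertical axis, each panel spanning 0.4) per library, by genotype (horizontal axis), with circles for lane 1 and triangles for lane 2; the black bar is the mean ± SD over libraries. Both Rnaseh2b ΔIEC libraries are the highest in every panel, and Atg16l1/Rnaseh2b ΔIEC libraries of lane 1 lie below those of lane 2.

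Differences between pairs of libraries of 1 genotype stood beside these. Among WT libraries, all in lane 1, libraries 1 and 2 exceeded libraries 3 and 4 in 54 of the 80 members (32.4% of all genes) and lay below them in 6 (34.4% of all genes), with a median difference of 0.07. In Atg16l1/Rnaseh2b ΔIEC they were above in 63 members (35.5% of all genes) and below in 6 (33.7%), with a median of 0.09, and there the pairs are also the lanes, so pair and lane cannot be told apart. In Atg16l1 ΔIEC they were above in 13 members (29.4% of all genes) and below in 21 (30.6%), with a median of -0.02. With lane as a covariate, which only the Atg16l1/Rnaseh2b ΔIEC libraries can separate from genotype, 2 members were called in Rnaseh2b ΔIEC against WT (1 of them among the 25, Ndufb7), which is 2.5% of members beside 11.7% of all genes, and the median was 0.02. The count was 8 and 11 without either Rnaseh2b ΔIEC library (8.87% and 9.68% of all genes), 14 without WT library 3 (20.8%) and 13 without WT library 4 (21.7%). With paired libraries averaged, which leaves Rnaseh2b ΔIEC as 1 sample, limma called 0 of 12802 genes, members included, and 11 members had an unadjusted p under 0.05.

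Markers of cell types moved along with this comparison, in which 14.4% of all genes rose and 12.3% fell. Of the 12 enterocyte markers 11 rose in Rnaseh2b ΔIEC against WT organoids, with a median log2 difference of 1.12. Their summed level was 18.09 to 18.22 in Rnaseh2b ΔIEC, 16.99 to 17.61 in WT, 17.09 to 17.85 in Atg16l1 ΔIEC and 16.86 to 17.32 in Atg16l1/Rnaseh2b ΔIEC organoids, and all 12 were above the required mean. Goblet cell markers were lower, 3 of 7 falling with a median of -0.43, at a summed level of 15.24 to 15.39 against 15.66 to 16.19 in WT. Stem cell markers fell in 2 of 8 (median -0.25), Paneth cell markers in 0 of 8 by limma (median 0.11, 0 at an unadjusted p under 0.05), and proliferation markers in 1 of 6 (median 0.01). The part of these markers in the subunit differences was not tested. Epithelial markers were high throughout, with a summed level of 17.19 to 17.37, and stromal and immune markers low, with 6 of 10 under the required mean and a summed level of 8.19 to 8.69. Tuft cell markers fell in 3 of 4 (summed level 8.79 to 9.34 over all libraries), and enteroendocrine markers in 0 of 5 by limma (13.59 to 14.80), 4 of them at an unadjusted p under 0.05.

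Atg16l1 ΔIEC and Atg16l1/Rnaseh2b ΔIEC organoids had fewer members called against WT. In Atg16l1 ΔIEC 5 members rose and 2 fell (8.75%, against 19.1% of all genes: 8.73% rose and 10.4% fell), with a median of 0.04. In Atg16l1/Rnaseh2b ΔIEC 3 rose and 2 fell (6.25%, against 16.1% of all genes: 8.10% rose and 8.01% fell), with a median of 0.01. Both shares lay below their background. All 3 comparisons share the WT libraries. Under the lane covariate 1 member was higher and 6 were lower in Atg16l1 ΔIEC (12.4% of all genes were called), only Ndufs3 being among the 7 before, and the median was -0.05. The covariate left 2 higher and 3 lower in Atg16l1/Rnaseh2b ΔIEC (11.1% of all genes were called), Ndufa6 and Ndufb7 being among the 5 before, and the median was -0.04. Leaving out Atg16l1 ΔIEC library 4 gave 4 (13% of all genes) and leaving out Atg16l1/Rnaseh2b ΔIEC library 3 gave 8 (14.2%). All Atg16l1 ΔIEC libraries lay above all WT libraries in 9 members (11.5% of all genes) and below in 3 (13.1%). Atg16l1/Rnaseh2b ΔIEC libraries did so in 6 (11.4%) and 3 (10.9%). Within lane 1, Atg16l1/Rnaseh2b ΔIEC against WT gave 2 members, both lower (10.2% of all genes were called).

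**Figure D3:**
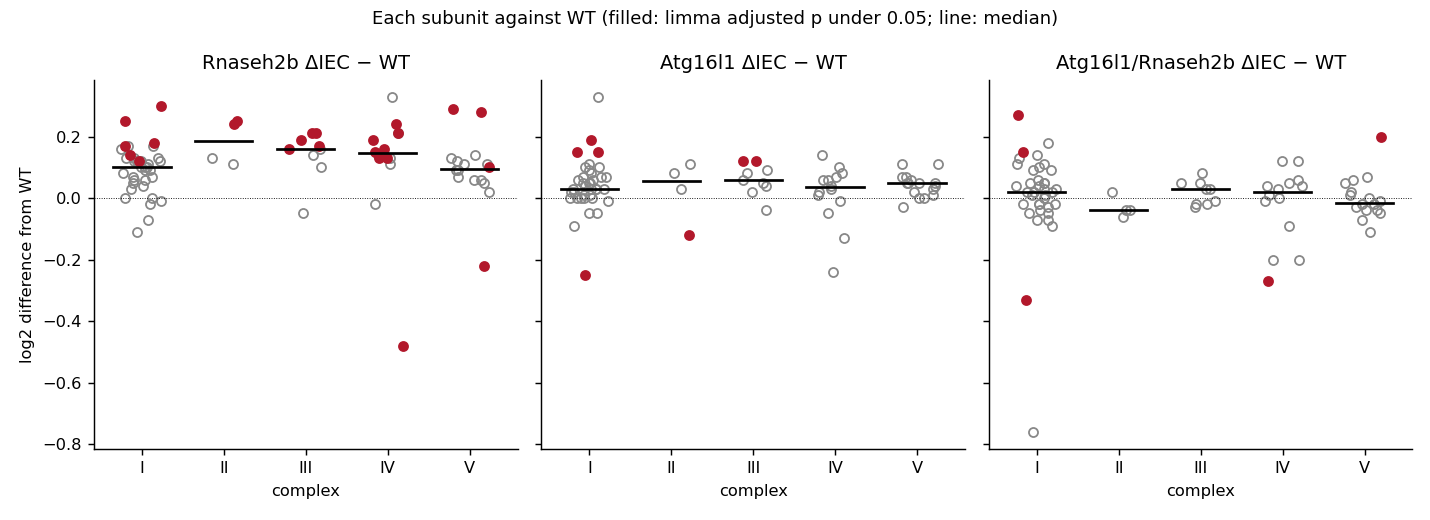
Log2 difference from WT (vertical axis) of each subunit by complex (horizontal axis) in the 3 knockouts. Filled points passed limma at an adjusted p of 0.05 and the black line is the median; the medians in Rnaseh2b ΔIEC lie between 0.10 and 0.19, and those of the other knockouts between -0.04 and 0.06.

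The differences in complex I did not follow a single direction. Ndufb7 (chromosome 8 of GRCm38, 83566671 to 83571626), an accessory subunit of the membrane arm, was the only member called in all 3 knockouts against WT. It read 10.80, 10.76, 10.73 and 10.81 in WT, 10.95, 10.96, 10.97 and 10.98 in Atg16l1 ΔIEC, 11.08 and 11.07 in Rnaseh2b ΔIEC, and 10.91, 11.01, 10.89 and 10.91 in Atg16l1/Rnaseh2b ΔIEC. All WT libraries lay below every knockout library, and the Rnaseh2b ΔIEC libraries were the highest. The log2 difference was 0.30 in Rnaseh2b ΔIEC (1.23-fold; SE 0.04, limma adjusted p = 0.00017), 0.19 in Atg16l1 ΔIEC (SE 0.03, limma adjusted p = 0.0011) and 0.15 in Atg16l1/Rnaseh2b ΔIEC (SE 0.03, limma adjusted p = 0.0066). The lane covariate gave 0.24 in Rnaseh2b ΔIEC (limma adjusted p = 0.013) and 0.13 in the other knockouts (limma adjusted p = 0.09 for Atg16l1 ΔIEC, 0.035 with both genes deleted).

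Ndufs3 (chromosome 2 of GRCm38, 90894634 to 90904827) is a core subunit of the arm that reduces ubiquinone. It read 10.31, 10.26, 10.29 and 10.25 in WT, 10.04, 10.08, 10.01 and 9.99 in Atg16l1 ΔIEC, 10.36 and 10.35 in Rnaseh2b ΔIEC, and 10.26, 10.26, 10.19 and 10.22 in Atg16l1/Rnaseh2b ΔIEC. All 4 Atg16l1 ΔIEC libraries lay below every other library. The log2 difference from WT was -0.25 (0.841-fold; SE 0.03, limma adjusted p = 0.00013). The lane covariate gave -0.30 (limma adjusted p = 0.0024). Rnaseh2b ΔIEC exceeded Atg16l1 ΔIEC, sequenced in the same lane, by 0.33 (SE 0.04, limma adjusted p = 0.00018). Atg16l1/Rnaseh2b ΔIEC exceeded Atg16l1 ΔIEC by 0.21 (SE 0.03, limma adjusted p = 0.00068). Ndufs3 overlaps Kbtbd4 on the opposite strand, and the strand setting of the counting is not stated.

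Ndufa6 (chromosome 15 of GRCm38, 82350140 to 82354322), an accessory subunit of the LYR family, was lowest in Atg16l1/Rnaseh2b ΔIEC organoids. It read 12.59, 12.56, 12.50 and 12.51 in WT, 12.37, 12.44, 12.58 and 12.56 in Atg16l1 ΔIEC, 12.43 and 12.44 in Rnaseh2b ΔIEC, and 12.16, 12.25, 12.22 and 12.22 in Atg16l1/Rnaseh2b ΔIEC. The 4 libraries of Atg16l1/Rnaseh2b ΔIEC lay below all others in both lanes. Its log2 difference was -0.33 from WT (0.796-fold; SE 0.04, limma adjusted p = 0.00095), -0.27 from Atg16l1 ΔIEC (SE 0.04, limma adjusted p = 0.0012) and -0.22 from Rnaseh2b ΔIEC organoids (SE 0.05, limma adjusted p = 0.0097). Within lane 1 the difference from WT was -0.32 (limma adjusted p = 0.0038).

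Ndufa1 (chromosome X of GRCm38, 37187588 to 37191163), a small subunit needed to build the membrane arm, read 9.98, 9.96, 9.99 and 9.94 in WT, 10.06, 9.97, 9.98 and 9.93 in Atg16l1 ΔIEC, 10.25 and 10.19 in Rnaseh2b ΔIEC, and 10.42, 10.33, 10.12 and 10.08 in Atg16l1/Rnaseh2b ΔIEC. Rnaseh2b ΔIEC and Atg16l1/Rnaseh2b ΔIEC libraries lay above WT and Atg16l1 ΔIEC libraries without overlap. It rose against WT by 0.25 in Rnaseh2b ΔIEC (SE 0.08, limma adjusted p = 0.029) and by 0.27 in Atg16l1/Rnaseh2b ΔIEC (SE 0.06, limma adjusted p = 0.016). The Atg16l1/Rnaseh2b ΔIEC libraries of lane 2 exceeded those of lane 1. The lane covariate turned the difference of Rnaseh2b ΔIEC from WT to -0.03 (limma adjusted p = 0.83). A fit within lane 2 alone placed Rnaseh2b ΔIEC above Atg16l1 ΔIEC by 0.24 (limma adjusted p = 0.032). In the fit of all libraries that difference did not pass (0.24, SE 0.08, limma adjusted p = 0.09).

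**Figure D4:**
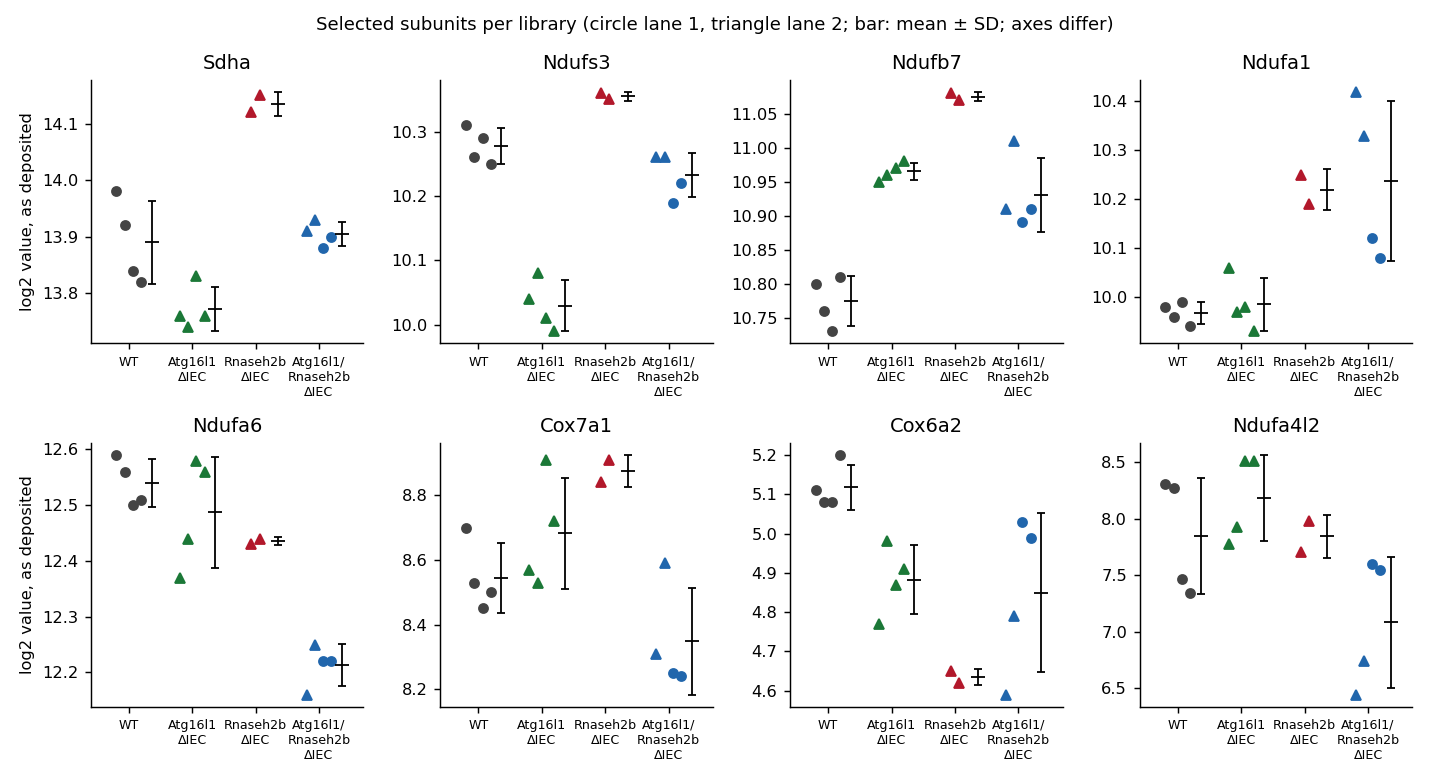
Deposited log2 values (vertical axes, which differ between panels) of 8 subunits by genotype (horizontal axis), with circles for lane 1, triangles for lane 2 and bars for the mean ± SD over libraries. Sdha and Ndufs3 are lowest in Atg16l1 ΔIEC, Ndufb7 is lowest in WT, and Ndufa6 is lowest in Atg16l1/Rnaseh2b ΔIEC (12.16 to 12.25).

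The core subunits of the NADH-oxidising arm moved little. Ndufv1, which binds NADH and flavin, read 12.63, 12.57, 12.49 and 12.56 in WT, 12.67, 12.64, 12.69 and 12.67 in Atg16l1 ΔIEC, 12.70 and 12.70 in Rnaseh2b ΔIEC, and 12.61, 12.70, 12.51 and 12.56 in Atg16l1/Rnaseh2b ΔIEC. It rose in Rnaseh2b ΔIEC by 0.14 (SE 0.05, limma adjusted p = 0.041). Ndufs1, its large iron-sulfur subunit, read 12.62, 12.58, 12.50 and 12.49 in WT, 12.73, 12.66, 12.73 and 12.68 in Atg16l1 ΔIEC, 12.65 and 12.65 in Rnaseh2b ΔIEC, and 12.65, 12.62, 12.51 and 12.58 in Atg16l1/Rnaseh2b ΔIEC. Atg16l1 ΔIEC libraries were the highest, and Ndufs1 rose there by 0.15 (SE 0.04, limma adjusted p = 0.014). Ndufs1 overlaps the highly expressed Eef1b2 on the opposite strand. Ndufv2, another iron-sulfur subunit of this arm, read 11.95, 11.96, 11.93 and 11.94 in WT, 11.91, 12, 12.01 and 11.96 in Atg16l1 ΔIEC, 12.04 and 12.04 in Rnaseh2b ΔIEC, and 12.01, 11.92, 11.89 and 11.90 in Atg16l1/Rnaseh2b ΔIEC. Its difference of 0.10 from WT in Rnaseh2b ΔIEC did not pass (limma adjusted p = 0.065).

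Among accessory subunits, Ndufa2 read 10.69, 10.62, 10.58 and 10.65 in WT, 10.77, 10.83, 10.77 and 10.75 in Atg16l1 ΔIEC, 10.81 and 10.71 in Rnaseh2b ΔIEC, and 10.71, 10.71, 10.69 and 10.66 in Atg16l1/Rnaseh2b ΔIEC. It rose in Atg16l1 ΔIEC by 0.15 (SE 0.03, limma adjusted p = 0.0082) and in Rnaseh2b ΔIEC by 0.12 (SE 0.04, limma adjusted p = 0.037). Ndufs6 read 10.64, 10.64, 10.59 and 10.55 in WT, 10.72, 10.72, 10.76 and 10.63 in Atg16l1 ΔIEC, 10.78 and 10.77 in Rnaseh2b ΔIEC, and 10.75, 10.67, 10.59 and 10.60 in Atg16l1/Rnaseh2b ΔIEC, and it rose in Rnaseh2b ΔIEC by 0.17 (SE 0.05, limma adjusted p = 0.02). The Rnaseh2b ΔIEC libraries of Ndufs6 exceeded all others.

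Ndufa11, an accessory subunit of the membrane arm, read 10.59, 10.50, 10.38 and 10.43 in WT, 10.56, 10.46, 10.52 and 10.54 in Atg16l1 ΔIEC, 10.70 and 10.61 in Rnaseh2b ΔIEC, and 10.47, 10.54, 10.38 and 10.43 in Atg16l1/Rnaseh2b ΔIEC. It rose by 0.18 in Rnaseh2b ΔIEC (SE 0.06, limma adjusted p = 0.037), whose libraries were the highest. Ndufb8, also of the membrane arm, read 11.54, 11.49, 11.37 and 11.37 in WT, 11.49, 11.53, 11.50 and 11.52 in Atg16l1 ΔIEC, 11.58 and 11.56 in Rnaseh2b ΔIEC, and 11.48, 11.50, 11.41 and 11.44 in Atg16l1/Rnaseh2b ΔIEC. Its Rnaseh2b ΔIEC libraries were the highest, and the difference of 0.13 from WT did not pass (limma adjusted p = 0.057).

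Ndufa4 and Ndufa4l2 carry complex I names, although Ndufa4 is now regarded as a subunit of complex IV. Ndufa4 read 12.13, 12.11, 12.09 and 12.15 in WT, 12.18, 12.15, 12.16 and 12.10 in Atg16l1 ΔIEC, 12.31 and 12.27 in Rnaseh2b ΔIEC, and 12.42, 12.32, 12.13 and 12.13 in Atg16l1/Rnaseh2b ΔIEC. No comparison passed for it, the difference in Rnaseh2b ΔIEC being 0.17 (limma adjusted p = 0.084). Ndufa4l2 (chromosome 10 of GRCm38, 127514967 to 127517154), a paralog known to be induced by hypoxia, varied more than any other member and read 8.31, 8.27, 7.47 and 7.34 in WT, 7.78, 7.93, 8.51 and 8.51 in Atg16l1 ΔIEC, 7.71 and 7.98 in Rnaseh2b ΔIEC, and 6.44, 6.74, 7.60 and 7.55 in Atg16l1/Rnaseh2b ΔIEC. Atg16l1/Rnaseh2b ΔIEC libraries 1 and 2 were the lowest, and WT libraries split into the same pairs. Against Atg16l1 ΔIEC it fell by 1.10 in Atg16l1/Rnaseh2b ΔIEC (0.467-fold; SE 0.29, limma adjusted p = 0.017), and by 1.59 within lane 2 (limma adjusted p = 0.01). It overlaps the more abundant Shmt2 on the opposite strand, whose mean was 12.33.

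All 4 genes of complex II lay above WT in Rnaseh2b ΔIEC organoids, and Sdha separated the genotypes most. Sdha (chromosome 13 of GRCm38, 74322254 to 74350280) encodes the flavoprotein that oxidises succinate and also works in the tricarboxylic acid cycle. It read 13.98, 13.92, 13.84 and 13.82 in WT, 13.76, 13.74, 13.83 and 13.76 in Atg16l1 ΔIEC, 14.12 and 14.15 in Rnaseh2b ΔIEC, and 13.91, 13.93, 13.88 and 13.90 in Atg16l1/Rnaseh2b ΔIEC. Rnaseh2b ΔIEC libraries were the highest and did not overlap any other group, whereas Atg16l1 ΔIEC libraries lay at the bottom, overlapping WT. Sdha rose by 0.24 in Rnaseh2b ΔIEC (SE 0.05, limma adjusted p = 0.0027) and fell by 0.12 in Atg16l1 ΔIEC against WT (SE 0.04, limma adjusted p = 0.041). Within lane 2, Rnaseh2b ΔIEC exceeded Atg16l1 ΔIEC by 0.36 (1.28-fold; SE 0.04, limma adjusted p = 0.0046) and Atg16l1/Rnaseh2b ΔIEC by 0.21 (SE 0.05, limma adjusted p = 0.023). With lane as a covariate the difference of Rnaseh2b ΔIEC from WT was 0.22 and did not pass (limma adjusted p = 0.063).

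Sdhd (chromosome 9 of GRCm38, 50596357 to 50603812), a membrane anchor, read 13.63, 13.58, 13.41 and 13.42 in WT, 13.62, 13.55, 13.67 and 13.65 in Atg16l1 ΔIEC, 13.74 and 13.78 in Rnaseh2b ΔIEC, and 13.51, 13.56, 13.39 and 13.43 in Atg16l1/Rnaseh2b ΔIEC. It rose in Rnaseh2b ΔIEC by 0.25 (SE 0.07, limma adjusted p = 0.013) and, against Rnaseh2b ΔIEC, fell by 0.29 in Atg16l1/Rnaseh2b ΔIEC (SE 0.07, limma adjusted p = 0.0068). WT libraries 1 and 2 exceeded WT libraries 3 and 4. Sdhc, the other anchor, read 13.10, 13.03, 12.96 and 12.96 in WT, 12.98, 13.02, 13.12 and 13.05 in Atg16l1 ΔIEC, 13.13 and 13.16 in Rnaseh2b ΔIEC, and 12.98, 13.01, 12.90 and 12.92 in Atg16l1/Rnaseh2b ΔIEC. Its Rnaseh2b ΔIEC libraries were the highest, with a difference of 0.13 from WT that did not pass (limma adjusted p = 0.062). Sdhb, the iron-sulfur subunit, read 12.59, 12.52, 12.46 and 12.47 in WT, 12.54, 12.51, 12.67 and 12.63 in Atg16l1 ΔIEC, 12.62 and 12.62 in Rnaseh2b ΔIEC, and 12.47, 12.56, 12.39 and 12.45 in Atg16l1/Rnaseh2b ΔIEC. Its difference in Rnaseh2b ΔIEC was 0.11 (limma adjusted p = 0.15), and the group overlapped Atg16l1 ΔIEC.

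Most complex III subunits were higher in Rnaseh2b ΔIEC organoids. Of the 9 members, 8 lay above WT in Rnaseh2b ΔIEC, and 5 rose. Cyc1, which carries the haem of cytochrome c1, read 13.43, 13.41, 13.31 and 13.35 in WT, 13.47, 13.43, 13.47 and 13.48 in Atg16l1 ΔIEC, 13.62 and 13.55 in Rnaseh2b ΔIEC, and 13.46, 13.48, 13.37 and 13.40 in Atg16l1/Rnaseh2b ΔIEC. It rose by 0.21 in Rnaseh2b ΔIEC (SE 0.04, limma adjusted p = 0.0046). Uqcrc1, a core subunit on the matrix side, read 13.76, 13.72, 13.61 and 13.65 in WT, 13.80, 13.77, 13.84 and 13.80 in Atg16l1 ΔIEC, 13.91 and 13.87 in Rnaseh2b ΔIEC, and 13.70, 13.76, 13.68 and 13.69 in Atg16l1/Rnaseh2b ΔIEC. It rose by 0.21 in Rnaseh2b ΔIEC (SE 0.04, limma adjusted p = 0.0052) and by 0.12 in Atg16l1 ΔIEC (SE 0.04, limma adjusted p = 0.036). Its partner Uqcrc2 read 13.81, 13.79, 13.75 and 13.74 in WT, 13.80, 13.80, 13.80 and 13.78 in Atg16l1 ΔIEC, 13.89 and 13.87 in Rnaseh2b ΔIEC, and 13.82, 13.79, 13.68 and 13.73 in Atg16l1/Rnaseh2b ΔIEC, and the difference of 0.10 did not pass (limma adjusted p = 0.073). In each of the 3 genes the Rnaseh2b ΔIEC libraries exceeded all others.

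Uqcrfs1, the Rieske iron-sulfur protein, read 12.92, 12.91, 12.88 and 12.87 in WT, 12.95, 12.92, 13.01 and 13.02 in Atg16l1 ΔIEC, 13.07 and 13.05 in Rnaseh2b ΔIEC, and 12.96, 12.97, 12.77 and 12.81 in Atg16l1/Rnaseh2b ΔIEC. It rose by 0.16 in Rnaseh2b ΔIEC (SE 0.05, limma adjusted p = 0.041), whose libraries exceeded all others, and the value with lane as a covariate was -0.01 (limma adjusted p = 0.89). Uqcrq, a small subunit, read 12.33, 12.35, 12.27 and 12.24 in WT, 12.43, 12.36, 12.47 and 12.42 in Atg16l1 ΔIEC, 12.51 and 12.46 in Rnaseh2b ΔIEC, and 12.34, 12.40, 12.28 and 12.30 in Atg16l1/Rnaseh2b ΔIEC. It rose by 0.19 in Rnaseh2b ΔIEC (SE 0.04, limma adjusted p = 0.0078) and by 0.12 in Atg16l1 ΔIEC (SE 0.04, limma adjusted p = 0.031). Uqcrh, the hinge protein, read 12.97, 12.92, 12.83 and 12.87 in WT, 12.94, 12.95, 12.96 and 12.96 in Atg16l1 ΔIEC, 13.05 and 13.05 in Rnaseh2b ΔIEC, and 12.99, 12.93, 12.77 and 12.79 in Atg16l1/Rnaseh2b ΔIEC. Its Rnaseh2b ΔIEC libraries were the highest, and the difference of 0.16 did not pass (limma adjusted p = 0.056). Uqcr11, a small subunit, also rose (0.17, SE 0.06, limma adjusted p = 0.044). Uqcrb was the only member of complex III below WT in Rnaseh2b ΔIEC, by 0.05 (limma adjusted p = 0.35).

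In complex IV 7 of 14 members rose in Rnaseh2b ΔIEC organoids against WT, and the muscle isoform Cox6a2 fell. Cox4i1, the ubiquitous form of the largest nuclear subunit, read 14.06, 14.05, 14.03 and 14.03 in WT, 14.13, 14.09, 14.12 and 14.09 in Atg16l1 ΔIEC, 14.19 and 14.15 in Rnaseh2b ΔIEC, and 14.07, 14.11, 13.95 and 14.01 in Atg16l1/Rnaseh2b ΔIEC. It rose by 0.13 (SE 0.04, limma adjusted p = 0.044). Cox5a, which shares sequence with other genes, read 12.17, 12.20, 12.18 and 12.23 in WT, 12.07, 12.20, 12.21 and 12.25 in Atg16l1 ΔIEC, 12.41 and 12.37 in Rnaseh2b ΔIEC, and 12.34, 12.28, 12.25 and 12.17 in Atg16l1/Rnaseh2b ΔIEC. It rose by 0.19 against WT (SE 0.05, limma adjusted p = 0.014) and by 0.21 against Atg16l1 ΔIEC organoids of the same lane (SE 0.05, limma adjusted p = 0.029). Cox5b read 10.66, 10.72, 10.58 and 10.65 in WT, 10.66, 10.78, 10.79 and 10.78 in Atg16l1 ΔIEC, 10.90 and 10.88 in Rnaseh2b ΔIEC, and 10.80, 10.82, 10.70 and 10.76 in Atg16l1/Rnaseh2b ΔIEC, with a rise of 0.24 (SE 0.05, limma adjusted p = 0.0033). In these genes, which encode structural subunits around the catalytic core, the Rnaseh2b ΔIEC libraries exceeded all others.

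Cox7b, needed for assembly of the complex, read 12.40, 12.38, 12.30 and 12.34 in WT, 12.37, 12.42, 12.50 and 12.43 in Atg16l1 ΔIEC, 12.59 and 12.54 in Rnaseh2b ΔIEC, and 12.41, 12.36, 12.36 and 12.32 in Atg16l1/Rnaseh2b ΔIEC. It rose by 0.21 in Rnaseh2b ΔIEC (SE 0.04, limma adjusted p = 0.0026). Cox6c, another structural subunit, rose by 0.16 (SE 0.05, limma adjusted p = 0.039). Cox7c, which shares 27.9% of its windows with other genes, was 0.21 above WT without passing, and 0.58 with lane as a covariate (SE 0.14, limma adjusted p = 0.018). Cox8a, the ubiquitous form, read 12.75, 12.78, 12.72 and 12.77 in WT, 12.75, 12.83, 12.84 and 12.87 in Atg16l1 ΔIEC, 12.89 and 12.84 in Rnaseh2b ΔIEC, and 12.78, 12.88, 12.75 and 12.82 in Atg16l1/Rnaseh2b ΔIEC, a difference of 0.11 (limma adjusted p = 0.075).

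The isoform pairs of complex IV differed in level and in direction. Cox6a1, the form of most tissues, read 12.76, 12.75, 12.66 and 12.70 in WT, 12.75, 12.72, 12.74 and 12.75 in Atg16l1 ΔIEC, 12.88 and 12.81 in Rnaseh2b ΔIEC, and 12.81, 12.82, 12.70 and 12.73 in Atg16l1/Rnaseh2b ΔIEC. It rose by 0.13 in Rnaseh2b ΔIEC (SE 0.04, limma adjusted p = 0.037). Cox6a2 (chromosome 7 of GRCm38, 128205435 to 128206387), the heart and muscle form, read 5.11, 5.08, 5.08 and 5.20 in WT, 4.77, 4.98, 4.87 and 4.91 in Atg16l1 ΔIEC, 4.65 and 4.62 in Rnaseh2b ΔIEC, and 4.59, 4.79, 5.03 and 4.99 in Atg16l1/Rnaseh2b ΔIEC. All WT libraries lay above every knockout library. It fell by 0.48 in Rnaseh2b ΔIEC (0.717-fold; SE 0.10, limma adjusted p = 0.0037) and by 0.27 in Atg16l1/Rnaseh2b ΔIEC (SE 0.08, limma adjusted p = 0.04). In Atg16l1 ΔIEC the difference was -0.24 (limma adjusted p = 0.054). A lane covariate left the difference in Rnaseh2b ΔIEC at -0.17 (limma adjusted p = 0.28). Of 6 muscle markers 4 were under the required mean, and the summed level was 9.26 to 9.43 in Rnaseh2b ΔIEC against 9.54 to 10.11 in WT; their part was not tested.

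Cox7a1 (chromosome 7 of GRCm38, 30184144 to 30186078), the other muscle form, read 8.70, 8.53, 8.45 and 8.50 in WT, 8.57, 8.53, 8.91 and 8.72 in Atg16l1 ΔIEC, 8.84 and 8.91 in Rnaseh2b ΔIEC, and 8.31, 8.59, 8.25 and 8.24 in Atg16l1/Rnaseh2b ΔIEC. It was 0.33 above WT in Rnaseh2b ΔIEC without passing (SE 0.12, limma adjusted p = 0.052), and against Rnaseh2b ΔIEC it fell by 0.52 in Atg16l1/Rnaseh2b ΔIEC (SE 0.12, limma adjusted p = 0.0061). Within lane 2 that difference was -0.42 (limma adjusted p = 0.022). Its widespread counterpart Cox7a2 read 12.18, 12.16, 12.06 and 12.09 in WT, 12.14, 12.21, 12.24 and 12.20 in Atg16l1 ΔIEC, 12.32 and 12.23 in Rnaseh2b ΔIEC, and 12.22, 12.19, 12.12 and 12.10 in Atg16l1/Rnaseh2b ΔIEC, with a rise of 0.15 in Rnaseh2b ΔIEC (SE 0.05, limma adjusted p = 0.029). Cox7a2l, which joins complexes III and IV in supercomplexes, read 11.78, 11.76, 11.68 and 11.73 in WT, 11.83, 11.72, 11.79 and 11.77 in Atg16l1 ΔIEC, 11.73 and 11.70 in Rnaseh2b ΔIEC, and 11.69, 11.68, 11.61 and 11.61 in Atg16l1/Rnaseh2b ΔIEC. It did not rise in Rnaseh2b ΔIEC (-0.02, limma adjusted p = 0.74), and against Atg16l1 ΔIEC it fell by 0.13 in Atg16l1/Rnaseh2b ΔIEC (SE 0.03, limma adjusted p = 0.014).

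Cox6b1 read 13.16, 13.15, 13.04 and 13.11 in WT, 13.12, 13.15, 13.17 and 13.14 in Atg16l1 ΔIEC, 13.26 and 13.24 in Rnaseh2b ΔIEC, and 13.27, 13.18, 13.10 and 13.09 in Atg16l1/Rnaseh2b ΔIEC. Its difference in Rnaseh2b ΔIEC was 0.14 (limma adjusted p = 0.061). The testis form Cox6b2 read 6.31, 6.37, 6.38 and 6.42 in WT, 6.22, 6.31, 6.21 and 6.20 in Atg16l1 ΔIEC, 6.33 and 6.66 in Rnaseh2b ΔIEC, and 6.18, 6.07, 6.23 and 6.20 in Atg16l1/Rnaseh2b ΔIEC. With both genes deleted it fell by 0.32 against Rnaseh2b ΔIEC (SE 0.08, limma adjusted p = 0.011), the 2 Rnaseh2b ΔIEC libraries being far apart.

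The catalytic head of complex V did not pass in any knockout against WT. Atp5a1, the alpha subunit, read 15.97, 15.92, 15.85 and 15.85 in WT, 15.96, 15.94, 15.95 and 15.94 in Atg16l1 ΔIEC, 16.01 and 16 in Rnaseh2b ΔIEC, and 15.94, 15.93, 15.79 and 15.84 in Atg16l1/Rnaseh2b ΔIEC. Atp5b, the beta subunit, read 16.21, 16.19, 16.16 and 16.17 in WT, 16.26, 16.23, 16.21 and 16.22 in Atg16l1 ΔIEC, 16.28 and 16.23 in Rnaseh2b ΔIEC, and 16.33, 16.32, 16.12 and 16.16 in Atg16l1/Rnaseh2b ΔIEC, and Atp5c1, the gamma subunit of the rotor, read 13.65, 13.62, 13.62 and 13.58 in WT, 13.60, 13.61, 13.57 and 13.57 in Atg16l1 ΔIEC, 13.66 and 13.67 in Rnaseh2b ΔIEC, and 13.66, 13.61, 13.50 and 13.52 in Atg16l1/Rnaseh2b ΔIEC. The differences in Rnaseh2b ΔIEC were 0.11, 0.07 and 0.05, respectively (limma adjusted p = 0.19, 0.44 and 0.46). Atp5d, the delta subunit, read 13.47, 13.50, 13.44 and 13.47 in WT, 13.48, 13.50, 13.56 and 13.53 in Atg16l1 ΔIEC, 13.59 and 13.54 in Rnaseh2b ΔIEC, and 13.35, 13.48, 13.36 and 13.41 in Atg16l1/Rnaseh2b ΔIEC, with a difference of 0.09 (limma adjusted p = 0.11).

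Of the 16 complex V members, 3 rose in Rnaseh2b ΔIEC against WT (Atp5e, Atp5g3 and Atp5k) and 1 fell. Atp5k (chromosome 5 of GRCm38, 108433244 to 108434448), the membrane subunit e that joins ATP synthase into dimers, read 11.29, 11.27, 11.15 and 11.23 in WT, 11.23, 11.34, 11.42 and 11.36 in Atg16l1 ΔIEC, 11.54 and 11.51 in Rnaseh2b ΔIEC, and 11.53, 11.44, 11.40 and 11.37 in Atg16l1/Rnaseh2b ΔIEC. It rose by 0.29 in Rnaseh2b ΔIEC (SE 0.06, limma adjusted p = 0.0025) and by 0.20 in Atg16l1/Rnaseh2b ΔIEC (SE 0.04, limma adjusted p = 0.011). Every library of these groups exceeded all WT libraries. Atp5e, the epsilon subunit, read 11.73, 11.70, 11.66 and 11.69 in WT, 11.72, 11.80, 11.77 and 11.74 in Atg16l1 ΔIEC, 11.81 and 11.78 in Rnaseh2b ΔIEC, and 11.71, 11.70, 11.63 and 11.68 in Atg16l1/Rnaseh2b ΔIEC. It rose by 0.10 in Rnaseh2b ΔIEC (SE 0.03, limma adjusted p = 0.045). Atp5o, the stalk subunit that confers oligomycin sensitivity, read 12.54, 12.51, 12.44 and 12.47 in WT, 12.52, 12.55, 12.58 and 12.52 in Atg16l1 ΔIEC, 12.60 and 12.55 in Rnaseh2b ΔIEC, and 12.56, 12.51, 12.45 and 12.48 in Atg16l1/Rnaseh2b ΔIEC, and Atp5mpl, a small proteolipid, read 11.79, 11.73, 11.71 and 11.67 in WT, 11.80, 11.81, 11.77 and 11.78 in Atg16l1 ΔIEC, 11.85 and 11.84 in Rnaseh2b ΔIEC, and 11.83, 11.76, 11.64 and 11.64 in Atg16l1/Rnaseh2b ΔIEC. Neither passed against WT, the differences in Rnaseh2b ΔIEC being 0.09 and 0.12 (limma adjusted p = 0.097 and 0.1). Atp5s, a coupling factor, went the other way and read 8.29, 8.15, 8.31 and 8.30 in WT, 8.21, 8.31, 8.37 and 8.28 in Atg16l1 ΔIEC, 8.02 and 8.06 in Rnaseh2b ΔIEC, and 8.05, 8.20, 8.23 and 8.15 in Atg16l1/Rnaseh2b ΔIEC. It fell by 0.22 in Rnaseh2b ΔIEC (SE 0.07, limma adjusted p = 0.025) and lay 0.25 below Atg16l1 ΔIEC of the same lane (SE 0.07, limma adjusted p = 0.039).

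The 3 genes for subunit c, which forms the rotating ring, encode the same mature protein. Atp5g3 was by far the highest and read 14.01, 13.97, 13.89 and 13.87 in WT, 14.05, 14.03, 14.06 and 14.06 in Atg16l1 ΔIEC, 14.23 and 14.21 in Rnaseh2b ΔIEC, and 14.06, 14.05, 13.92 and 13.93 in Atg16l1/Rnaseh2b ΔIEC. It rose by 0.28 in Rnaseh2b ΔIEC (SE 0.05, limma adjusted p = 0.002), whose libraries exceeded all others. Atp5g1 read 7.04, 7.05, 6.94 and 6.93 in WT, 7.06, 7.03, 6.99 and 6.90 in Atg16l1 ΔIEC, 7.08 and 7.03 in Rnaseh2b ΔIEC, and 7.01, 7, 6.85 and 7.01 in Atg16l1/Rnaseh2b ΔIEC, and Atp5g2 read 4.48, 4.56, 4.45 and 4.54 in WT, 4.56, 4.45, 4.56 and 4.62 in Atg16l1 ΔIEC, 4.50 and 4.56 in Rnaseh2b ΔIEC, and 4.34, 4.51, 4.54 and 4.45 in Atg16l1/Rnaseh2b ΔIEC. Their differences in Rnaseh2b ΔIEC were 0.06 and 0.02 (limma adjusted p = 0.54 and 0.8), and no groups of Atp5g2 were separated.

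Adding Atg16l1 deletion to Rnaseh2b deletion went with lower subunit mRNA. Against Rnaseh2b ΔIEC, Atg16l1/Rnaseh2b ΔIEC organoids showed 23 members lower and 0 higher, 28.7% of members, when 14.4% of all genes were lower and 11.1% higher (25.5% in all). The 0 refers to the limma threshold, 37 members having an unadjusted p under 0.05 in either direction. The median log2 difference was -0.09 (0.940-fold), against 0.00 over all genes, and in 41 members all Atg16l1/Rnaseh2b ΔIEC libraries lay below both Rnaseh2b ΔIEC libraries (25.8% of all genes), and in 0 above (24.1%). Complex II had 3 of 4 lower, complex III 6 of 9, complex IV 5 of 14, complex I 6 of 37 and complex V 3 of 16. This comparison shares the 2 Rnaseh2b ΔIEC libraries with that against WT, so the lists are not independent. Rnaseh2b itself was higher in Atg16l1/Rnaseh2b ΔIEC (7.68 to 7.92) than in Rnaseh2b ΔIEC (7.15 to 7.21). The count was 9 within lane 2 (8 lower and 1 higher), where 28.9% of all genes were called. With lane as a covariate it was 14 (11 of them among the 23), with 27.1% of all genes called. It was 4 and 1 without either Rnaseh2b ΔIEC library (10.4% and 5.91% of all genes) and 12 without Atg16l1/Rnaseh2b ΔIEC library 3 (20.5%). The members kept with lane as a covariate were Ndufa6, Ndufb7, Sdha, Sdhc, Sdhd, Uqcrc1, Cox6b2, Cox7a1, Cox7b, Atp5d and Atp5g3.

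Enterocyte markers fell in the same comparison, 11 of 12 with a median of -1.12, and goblet cell markers rose, 6 of 7 with a median of 0.73. Paneth cell markers had 1 of 8 higher (median 0.52) and stem cell markers 2 higher and 1 lower of 8 (median 0.33). Their part in the subunit differences was not tested.

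Against Atg16l1 ΔIEC, Atg16l1/Rnaseh2b ΔIEC organoids had 3 members higher (Ndufa1, Ndufs3 and Sdha) and 6 lower (Ndufa4l2, Ndufa6, Ndufs7, Cox7a1, Cox7a2l and Atp5d), 11.2% of members against 25.1% of all genes (12.6% higher and 12.5% lower), with a median of -0.03. In 3 members all its libraries lay above those of Atg16l1 ΔIEC (12.1% of all genes) and in 8 below (11.8%). The split turned with lane as a covariate, which gave 10 higher and 4 lower (31.1% of all genes were called) and a median of 0.01. Within lane 2 alone 4 were higher and 2 lower (16.2% of all genes were called). The count was 5 without Atg16l1 ΔIEC library 4 (14.3% of all genes). Atg16l1 itself read 8.14 to 8.57 in Atg16l1/Rnaseh2b ΔIEC, against 6.73 to 7.35 in Atg16l1 ΔIEC.

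Rnaseh2b ΔIEC and Atg16l1 ΔIEC organoids, which lie in the same lane, differed in 4 members, and in 6.81% of all genes. Ndufs3, Sdha and Cox5a were higher in Rnaseh2b ΔIEC (4.34% of all genes were), and Atp5s was lower (2.47% of all genes were). The median over all members was 0.07, and in 44 members both Rnaseh2b ΔIEC libraries exceeded all Atg16l1 ΔIEC libraries (20.4% of all genes), and in 4 they lay below (17.4% of all genes). A fit within lane 2 alone called 4 members higher and 0 lower (6.51% of all genes were called). Of these only Ndufs3 and Sdha were among the 4 above, Cox5a and Atp5s having limma adjusted p = 0.058 and 0.06 there. The fit of all libraries with lane as a covariate leaves these differences as they are and narrows their errors. It gave 14 members, with 12.7% of all genes called. Without Rnaseh2b ΔIEC library 2 the count was 2 (0.703% of all genes).

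**Figure D5:**
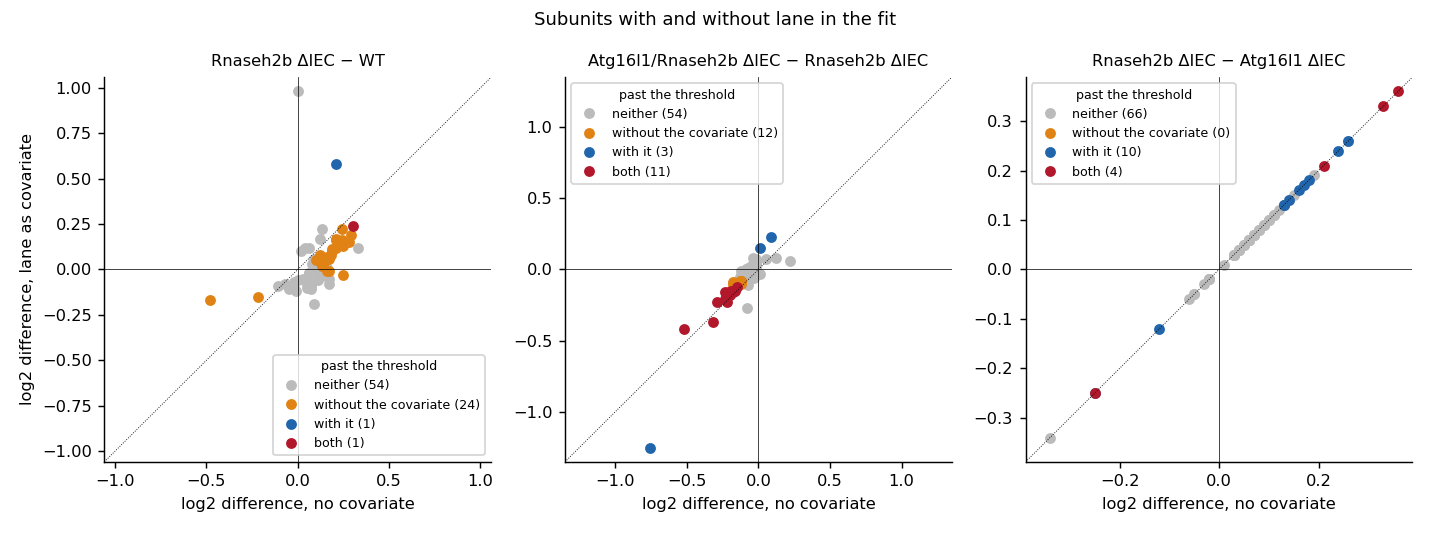
Log2 difference of each subunit without a covariate (horizontal axis) and with lane as a covariate (vertical axis) in 3 comparisons, coloured by which fit called it, with the number in brackets and a dotted line of equality. Against WT 24 of 25 calls are lost, whereas in the comparison within lane 2 (right) the differences are equal and 4 calls are shared.

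The effect of Rnaseh2b deletion was compared between organoids with and without Atg16l1 deletion by the interaction. The interaction is the difference of Atg16l1/Rnaseh2b ΔIEC from Atg16l1 ΔIEC minus that of Rnaseh2b ΔIEC from WT. It passed in 30 members, 28 negative and 2 positive (37.5%, against 35.1% of all genes: 18.1% negative and 17% positive). The median was -0.13, against 0.00 over all genes. In complex II 3 of 4 were negative, in complex III 6 of 9, in complex IV 5 of 14, in complex I 8 of 37 and in complex V 6 of 16. Sdhd (-0.40, SE 0.08, limma adjusted p = 0.003), Ndufb7 (-0.34, SE 0.05, limma adjusted p = 0.0003), Atp5g3 (-0.34, SE 0.07, limma adjusted p = 0.002) and Cox7a1 (-0.66, SE 0.15, limma adjusted p = 0.0046) were the most negative of those that passed. Cox6a2 (0.45, SE 0.13, limma adjusted p = 0.014) and Ndufs3 (0.13, SE 0.05, limma adjusted p = 0.045) were positive. All 4 groups enter this term, so lane and pair enter too. Under the lane covariate 3 members were positive and 3 negative (20.2% of all genes passed), and only Ndufb7 (-0.25, limma adjusted p = 0.034) was among the 30. Without either Rnaseh2b ΔIEC library 12 and 16 passed (23.3% and 21.1% of all genes).

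Other mitochondrial genes were counted from fixed lists, in the fit without lane. The parts of lane and library pair in these counts were not tested. Among all genes 14.4% rose and 12.3% fell in Rnaseh2b ΔIEC against WT. Of 13 enzymes of the tricarboxylic acid cycle 8 rose there and 0 fell (8 had an unadjusted p under 0.05 in either direction), with a median of 0.15. Sucla2, a subunit of succinyl-CoA ligase, rose most (0.26, SE 0.05, limma adjusted p = 0.0019). Of 45 assembly factors 9 rose, with a median of 0.08, led by Atpaf1, an assembly factor of ATP synthase (0.29, SE 0.06, limma adjusted p = 0.0055). Among 8 electron carriers and partners 4 rose and 1 fell. Cycs, which encodes cytochrome c, rose by 0.39 (SE 0.09, limma adjusted p = 0.0071), and Higd1a, known to be induced by hypoxia, fell by 0.25 (SE 0.07, limma adjusted p = 0.016). Of 13 regulators of mitochondrial biogenesis 3 rose and 1 fell. The coactivator gene Ppargc1b rose by 0.33 (SE 0.05, limma adjusted p = 0.00053), and its relative Ppargc1a fell by 0.55 (SE 0.13, limma adjusted p = 0.01).

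In Atg16l1 ΔIEC against WT, 0 of 13 enzymes of the tricarboxylic acid cycle and 0 of 8 electron carriers passed limma, with 3 and 2 at an unadjusted p under 0.05. Among all genes 8.73% rose and 10.4% fell. Assembly factors had 4 higher and 2 lower of 45, and regulators 1 higher and 2 lower of 13, of which Ppargc1a fell by 0.78 (SE 0.11, limma adjusted p = 0.00048). In Atg16l1/Rnaseh2b ΔIEC against WT, 0 of 13 enzymes of the cycle passed limma (0 at an unadjusted p under 0.05), and 8.10% of all genes rose and 8.01% fell. Assembly factors had 3 higher and 2 lower, with Foxred1 at 0.18 and Cox17 at -0.34, and Higd2a (-0.17) and Ppargc1a (-0.60) fell in their lists. Against Rnaseh2b ΔIEC, 7 of 13 enzymes of the cycle, 5 of 8 electron carriers and 4 of 45 assembly factors were lower, with medians of -0.17, -0.18 and -0.04, and 1 electron carrier was higher. Among all genes 14.4% were lower and 11.1% higher in that comparison.

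Of the 14 hypoxia-response genes 11 were lower in Rnaseh2b ΔIEC than in WT (median -0.52, beside 12.3% of all genes). In Atg16l1 ΔIEC 7 were lower (median -0.49, beside 10.4% of all genes). The summed level of the 14 genes was 17.68 to 17.76 in WT, which lies in lane 1. In lane 2 it was 17.33 to 17.38 in Rnaseh2b ΔIEC and 17.34 to 17.44 in Atg16l1 ΔIEC. Atg16l1/Rnaseh2b ΔIEC, which spans both lanes, ranged from 17.25 to 17.71, and the part of lane was not tested. Against Rnaseh2b ΔIEC, 8 were higher in Atg16l1/Rnaseh2b ΔIEC (median 0.41, beside 11.1% of all genes). The hypoxia-induced subunit Ndufa4l2 differed by 0.00 from WT in Rnaseh2b ΔIEC and by -0.76 between Atg16l1/Rnaseh2b ΔIEC and Rnaseh2b ΔIEC (limma adjusted p = 0.14).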

How the data were processed

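Total RNA of 14 small intestinal organoid samples was sequenced by the authors with stranded mRNA libraries and single reads of 50 bases. Per the labels, cutadapt, TopHat2, GRCm38, HTSeq and DESeq2 were used, without versions. The deposited values are on a log2 scale, normalised by the authors (from -2.13 to 17.45, 16.9% below 0). The transformation behind the log2 values, the strand setting and the read totals are not given in the sources used here, so the precision from depth is unknown. Low genes vary little on this scale (median SD 0.001 between -3 and -2, and 0.151 between 6 and 7). Symbols were found in the GRCm38 annotation for 99.7% of rows.

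Samples were grouped by their genotype labels. Genes with a mean of at least log2 of 10 over the 14 libraries (12802 of 18781) were fitted with limma 3.58.1 in R 4.3.3, with 1 mean per genotype, and p-values were adjusted over all of them (Benjamini-Hochberg, 0.05). Library pairs, lanes, scaling, pseudocounts, a replicate block and left-out libraries were alternatives. Values in every library are given for core subunits, isoform sets, the largest changes per complex against WT, and members called in all comparisons with WT or in the interaction, except for an item that is not reported here. The members and the lists (assembly factors, regulators, tricarboxylic acid cycle, electron carriers, hypoxia response, and markers of epithelium, enterocytes, stem, Paneth, goblet, enteroendocrine and tuft cells, proliferation, stroma and immune cells, and muscle) were chosen with earlier results of these data known. Summed levels are the log2 of summed linear values. The fit was also run on simulated data with independent libraries. These lack the pairs and lanes of the real libraries, so they cannot check the p-values for either. Python 3.11.15, numpy 2.4.6, pandas 2.3.3 and matplotlib 3.10.9 were used for values and figures.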

Additional observations from a re-analysis of the deposited data

Results flagged for a closer look

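In 159 groups of 4 libraries the gap of the highest or lowest library to the others was set against Dixon's 95% critical value, which chance passes in about 1 group in 20. It was passed by 4 single libraries. Atp5g1 was 6.85 in Atg16l1/Rnaseh2b ΔIEC library 3, with the others at 7 to 7.01. Atp5s was 8.15 in WT library 2, with the others at 8.29 to 8.31. Cox5b was 10.66 in Atg16l1 ΔIEC library 1, with the others at 10.78 to 10.79. Sdha was 13.83 in Atg16l1 ΔIEC library 3, with the others at 13.74 to 13.76.

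The effect of Rnaseh2b deletion differed between organoids with and without Atg16l1 deletion in 30 members by limma's interaction term, given here as the log2 effect with minus without Atg16l1 deletion and its limma adjusted p. In complex I these were Ndufa11 (-0.25, adjusted p = 0.022), Ndufa2 (-0.21, adjusted p = 0.0075), Ndufb7 (-0.34, adjusted p = 0.0003), Ndufb8 (-0.18, adjusted p = 0.031), Ndufs1 (-0.21, adjusted p = 0.015), Ndufs3 (0.13, adjusted p = 0.045), Ndufs6 (-0.23, adjusted p = 0.014), Ndufv1 (-0.21, adjusted p = 0.016) and Ndufv2 (-0.14, adjusted p = 0.037). In complex II they were Sdhb (-0.23, adjusted p = 0.022), Sdhc (-0.22, adjusted p = 0.016) and Sdhd (-0.40, adjusted p = 0.003). In complex III they were Cyc1 (-0.24, adjusted p = 0.0053), Uqcrc1 (-0.30, adjusted p = 0.0017), Uqcrc2 (-0.15, adjusted p = 0.045), Uqcrfs1 (-0.26, adjusted p = 0.012), Uqcrh (-0.24, adjusted p = 0.021) and Uqcrq (-0.28, adjusted p = 0.0027). In complex IV they were Cox4i1 (-0.20, adjusted p = 0.014), Cox5b (-0.22, adjusted p = 0.013), Cox6a2 (0.45, adjusted p = 0.014), Cox7a1 (-0.66, adjusted p = 0.0046), Cox7a2 (-0.19, adjusted p = 0.026) and Cox7b (-0.28, adjusted p = 0.0014). In complex V they were Atp5d (-0.21, adjusted p = 0.0084), Atp5e (-0.18, adjusted p = 0.0081), Atp5g3 (-0.34, adjusted p = 0.002), Atp5k (-0.19, adjusted p = 0.048), Atp5mpl (-0.19, adjusted p = 0.037) and Atp5o (-0.13, adjusted p = 0.05). Under a lane covariate 1 of these, Ndufb7, still passed, and the part of lane in the others was not tested further.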

How the results depend on the processing

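Counts of members called moved with several settings, and where no value shows why, the cause was not tested. For Rnaseh2b ΔIEC against WT the count of 25 became 15 with libraries shifted by their summed linear values (27.4% of all genes were called). It became 2 with lane as a covariate (11.7%) and 8 to 34 with 1 library left out (8.87% to 25.7%). For Atg16l1/Rnaseh2b ΔIEC against Rnaseh2b ΔIEC the count of 23 became 10 with that shift (28.8% of all genes) and 14 with lane (27.1%). A fit of the 2 groups only gave 10 (19.2%), and a fit within a lane gave 9 (28.9%). With 1 library left out the count was 1 to 32 (5.91% to 25.7%). For Atg16l1/Rnaseh2b ΔIEC against Atg16l1 ΔIEC and for Rnaseh2b ΔIEC against Atg16l1 ΔIEC it became 14 with lane (31.1% and 12.7% of all genes). With 1 library left out it was 5 to 13 and 2 to 5 (14.3% to 27.1% and 0.703% to 6.98% of all genes). The interaction gave 6 with lane (20.2% of all genes) and 12 to 34 with 1 library left out (21.1% to 36.8%). Atg16l1 ΔIEC against WT gave 4 to 8 with 1 library left out (13% to 19.3% of all genes). Atg16l1/Rnaseh2b ΔIEC against WT gave 2 within a lane (10.2%) and 4 to 8 with 1 library left out (7.82% to 16.2%). With paired libraries averaged, which leaves fewer samples (1 of Rnaseh2b ΔIEC), limma called 0 members and 0 to 2 of 12802 genes in every comparison, with 4 to 11 at an unadjusted p under 0.05.

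With lane as a covariate 26 of the 103 calls over all members still passed and 8 turned in sign. Among the 98 calls of 39 of the genes named, 7 did: Ndufa1 (-0.03) and Uqcrfs1 (-0.01) in Rnaseh2b ΔIEC against WT, and Atp5mpl (0.04), Cox6a2 (-0.02), Uqcrc2 (0.00), Uqcrfs1 (0.00) and Uqcrh (0.03) in the interaction. The other was Uqcr11 (-0.01) in Rnaseh2b ΔIEC against WT. Pseudocounts of 1 and 5 changed none of the 98.

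Libraries of the same number in different genotypes showed no common direction (correlations of -0.41 to 0.46, median -0.03, 7 of 18 over 0.1). The highest, 0.45 to 0.46, joined library 1 of the knockouts, all in lane 2. Deviations within a genotype cancel by construction, so these correlations cannot show whether libraries of the same number share a culture or batch. With the replicate number as a block the count was 14 for Rnaseh2b ΔIEC against WT (22.6% of all genes were called). It was 13 for Atg16l1/Rnaseh2b ΔIEC against Rnaseh2b ΔIEC (23.4%). For Atg16l1 ΔIEC and Atg16l1/Rnaseh2b ΔIEC against WT it was 9 and 7 (20.8% and 16.6%). Against Atg16l1 ΔIEC it was 11 for Atg16l1/Rnaseh2b ΔIEC and 3 for Rnaseh2b ΔIEC (26.2% and 3.31%). The interaction gave 24 with that block (35% of all genes).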
